A study of Mus musculus with 102 samples.

Results

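SAP18 was listed at 28497 of 67697 genomic regions in mouse embryonic stem (ES) cells, which is 42.1% of the regions carrying H3K4me1, H3K4me3 or both. A region counted as a SAP18 region when the authors' region table gave it a SAP18 value. That value is a log2 enrichment, and the table lists none below a fold of 1.5. The chromatin immunoprecipitation and sequencing (ChIP-seq) behind it used 129/Ola ES cells, grown on feeder cells and then without feeders before crosslinking. The labels give no genotype or modification for these cells. They describe 2 SAP18 libraries, numbered 1 and 3, made with an Abcam antibody, and the table holds 1 SAP18 value per region. The study asked which chromatin regulators lie with H3K4me1 at enhancers, and whether they depend on that mark. Its 102 libraries include 17 factors in 129/Ola cells, H3K27ac, H3K4me1 and H3K4me3, and also R1 ES cells of strain 129SV. The R1 cells were wild type or a double catalytic-dead line, in which the H3K4 methyltransferases MLL3 and MLL4 are present but inactive. They grew on mouse embryonic feeder cells in serum-free medium with leukemia inhibitory factor, and SAP18 was not among the proteins profiled in them. No gene annotation of the table's build, mm9, was used here, so ES cell marker genes and the genes at SAP18 regions were not analysed.

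SAP18 is a small protein with a ubiquitin-like fold, first known as a partner of the corepressor SIN3, which brings histone deacetylases to chromatin. It is also a subunit of the ASAP and PSAP complexes, which contain RNPS1 and act with the exon junction complex in pre-mRNA splicing. H3K4me1 with H3K27ac marks active enhancers, H3K4me1 without H3K27ac marks poised ones, and H3K4me3 marks promoters. ChIP-seq counts DNA crosslinked to a protein directly or through its partners, so a listed region is one where SAP18 lay on or near chromatin.

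Most SAP18 regions carried H3K4me3. Regions with both H3K4me1 and H3K4me3 (both-mark regions) listed SAP18 in 14013 of 18425 cases, 76.1% (95% Wilson interval 75.4 to 76.7%). Regions with H3K4me3 alone listed it in 5491 of 7453, 73.7% (72.7 to 74.7%). Regions with H3K4me1 alone, the class that holds the enhancers, listed it in 8993 of 41819, 21.5% (21.1 to 21.9%). The H3K4me1-only class thus held 61.8% of all regions but 31.6% of SAP18 regions, while both-mark regions made up 27.2% of all regions and 49.2% of SAP18 regions. Intervals here cover counting over regions only. With 1 value per factor and region, the spread between libraries and the depth of each are unknown, and no p-value is given.

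The order of the classes was checked chromosome by chromosome, because chromosomes share the libraries but not the regions. The SAP18 share of both-mark regions was above that of H3K4me1-only regions on 20 of 20 chromosomes (19 autosomes and X), and so was the share of H3K4me3-only regions. Over the autosomes the share ran from 15.8 to 28.1% in H3K4me1-only, from 70.2 to 79.7% in both-mark and from 66.6 to 83.1% in H3K4me3-only regions. The ranges of the first class and the other two did not overlap. Both-mark regions exceeded H3K4me3-only regions on 13 of 20 chromosomes, so the order of these 2 classes was not the same throughout the genome.

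Each of the other 16 factors was counted by the same listing limit, which places SAP18 among them. SAP18 was the second most often listed factor after SRSF2, and the sixth most often listed in H3K4me1-only regions. Its share in both-mark regions exceeded its share in H3K4me1-only regions by 54.5 percentage points. In points this was the largest gap of the 17 factors, followed by RUVBL2 at 53.1. As a ratio of the same 2 shares SAP18 stood at 3.54, below BAF155 at 5.20, RUVBL2 at 4.15 and RUVBL1 at 3.92. Counting SAP18 only at a log2 enrichment of 1 or more, its gap was 36.0 points. Regions differ in how many factors they list, so shares were also averaged over regions with equal numbers of the other 16 factors. The SAP18 gap was then 22.5 points, ahead of RUVBL2 at 21.8 and BAF155 at 15.2. At equal numbers of other factors both-mark regions stood below H3K4me3-only regions, by a difference of -3.57 points, where the unadjusted difference was 2.38 points. The RUVBL2 shares already differed in that direction before adjustment, by -11.7 points, and by -21.6 after it.

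Where SAP18 was listed, its enrichment was modest and within a narrow range. The median log2 enrichment was 0.98, with quartiles of 0.84 and 1.16, and the highest was 3.17, a 9.02-fold enrichment. By class the medians were 0.88 in H3K4me1-only, 1.03 in both-mark and 1.04 in H3K4me3-only regions. The both-mark median was above the H3K4me1-only median on 20 of 20 chromosomes, and the difference of 0.16 was 0.0359 at equal numbers of other factors. A log2 value of 1 or more, at least a doubling, was reached by 13500 SAP18 regions (47.4%), namely 29.1% of those in H3K4me1-only, 55.6% in both-mark and 56.3% in H3K4me3-only regions. A value of 2 or more was reached by 115, of which 5 were H3K4me1-only, 44 both-mark and 66 H3K4me3-only. At the listing limit, the lowest SAP18 value was 0.587, 36 values lay below 0.6 and 1690 (5.93%) below 0.7. No values are listed for regions just outside the limit.

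The strongest SAP18 regions show how varied its surroundings were. The highest value, 3.17, lay at chr19:55172981-55174627 (mm9, 1647 bp), an H3K4me3-only region with 15 of the 16 other factors, all but WSTF, and an H3K27ac log2 enrichment of 1.81. The next H3K4me3-only region, chr13:53472276-53473105, had a SAP18 value of 3.08 with 7 other factors and H3K27ac at 1.14. At chr6:91390447-91391738 a SAP18 value of 2.83 came with only 4 other factors, RUVBL2, SMC3, SRSF2 and WSTF, and with H3K27ac at 0.92. High SAP18 values in this class were thus found both with nearly all other factors and with few. All 3 regions lay under a proximal H3K4me3 peak in R1 cells, that is, one the authors placed near a promoter. Its enrichment was 22.0-fold (wild type) and 27.3-fold (catalytic-dead) at the chromosome 19 region, 17.9 and 17.7 at the chromosome 13 region, and 18.5 and 17.5 at the chromosome 6 region.

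Among both-mark regions the highest SAP18 value was 2.87 at chr8:124998964-125001213, with 15 other factors and H3K27ac at 1.73. A region of 182 bp at chr15:51957157-51957338 followed at 2.62, with 13 other factors and the highest H3K27ac value of these regions, 2.48. It had no overlapping H3K4me1 or H3K4me3 peak in R1 cells. The region at chr17:46624205-46624642 had a SAP18 value of 2.37 and 14 other factors. Its proximal R1 H3K4me1 peak was enriched 1.80-fold in the wild type and 6.06-fold in the catalytic-dead line, and its H3K4me3 peak 11.3-fold and 12.5-fold. H3K4me1 was therefore the higher in the catalytic-dead line at this place, with H3K4me3 close to its wild-type value.

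The highest SAP18 values in H3K4me1-only regions were lower and came from short regions. They were 2.38 at chr2:79425850-79426058 (209 bp), 2.28 at chr6:91426699-91427016 (318 bp) and 2.27 at chr16:78553025-78553233 (209 bp). The chromosome 2 region is on the authors' list of poised enhancers, with 8 other factors and H3K27ac at 0.69. The chromosome 6 region is also on that list, with 5 other factors and no listed H3K27ac. In R1 cells it fell under a proximal H3K4me1 peak, enriched 3.32-fold in the wild type and 5.28-fold in the catalytic-dead line. It also fell under a proximal R1 H3K4me3 peak, enriched 3.04-fold and 2.39-fold in these lines. The chromosome 16 region is on the list of active enhancers, with 13 other factors and H3K27ac at 1.79. The next active enhancer by SAP18 value was chr5:143197255-143197475 at 2.24, with 12 other factors and H3K27ac at 2.14.

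Acetylation of H3K27 is the mark that deacetylases of the SIN3 complex can remove. H3K27ac was listed at 62.6% of all regions, at 84.7% of SAP18 regions and at 46.5% of regions without SAP18. SAP18 was listed at 57.0% of the regions with H3K27ac and at 17.2% of those without, a difference of 39.8 points (39.1 to 40.5). In points this gap was the largest of the 17 factors, followed by RUVBL2 at 38.1, and it depends on how often a factor is listed. At equal numbers of the other 16 factors the SAP18 gap was 12.8 points, the second after SSRP1 at 13.6. The labels hold 1 SSRP1 library and 2 SAP18 libraries. At equal H3K4 class the SAP18 gap was 21.7 points. Within classes SAP18 was listed with and without H3K27ac at 31.9 and 12.5% in H3K4me1-only, 78.8 and 55.6% in both-mark, and 76.8 and 45.8% in H3K4me3-only regions. SAP18 was thus the more frequent with H3K27ac in each of the 3 classes, and 4347 SAP18 regions had no listed H3K27ac.

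**Figure D1:**
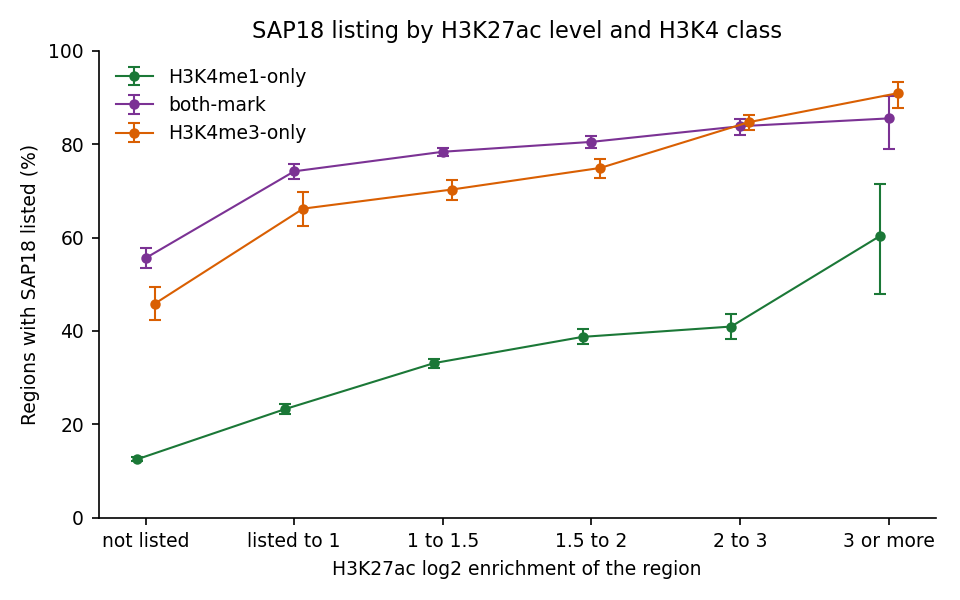
Percent of regions that list SAP18 (vertical axis) by H3K27ac log2 enrichment group (horizontal axis) in the 3 H3K4 methylation classes. Bars on the points are 95% Wilson intervals, which cover counting over regions only. All 3 classes are lowest without listed H3K27ac, at 12.5, 55.6 and 45.8%, and highest in the last group, at 60.3, 85.5 and 90.9%.

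The share of regions with SAP18 was higher in each higher H3K27ac group, as the plot by H3K27ac group shows. In H3K4me1-only regions it was 12.5% with no listed H3K27ac, 23.3% in the lowest listed group, then 33.1, 38.7 and 41.0%, and 60.3% in the highest, which holds only 63 regions. In H3K4me3-only regions it went from 45.8% through 66.2, 70.3, 74.9 and 84.7% to 90.9%. The strength of SAP18 had little relation to that of H3K27ac. Across the 24150 regions listing both, which share the SAP18 libraries, Spearman's rho was 0.09, and by class it was 0.06, 0.02 and 0.14. Over the 17 factors this rho ran from -0.10 for WSTF to 0.18 for RUVBL2, so a weak relation of level to H3K27ac was common to them.

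The authors' enhancer lists divide the H3K4me1-only regions. SAP18 was listed at 4763 of 12492 active enhancers (38.1%), at 3834 of 19567 poised enhancers (19.6%) and at 396 of 9760 regions on neither list (4.06%). Each listed enhancer holds at least 1 of a set of factors to which SAP18 does not belong, and the regions on neither list hold none of them. The mean number of other factors at SAP18 regions was 6.27 in active, 4.67 in poised and 0.364 in regions on neither list. The median SAP18 log2 enrichment was nearly the same in active (0.89) and poised (0.88) enhancers, and 0.75 in regions on neither list.

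SAP18 regions were wider than the others in the classes with H3K4me3 and narrower in the class without it. The median width with and without SAP18 was 1230 and 625 bp in both-mark regions, 1553 and 1238 bp in H3K4me3-only regions, and 457 and 546 bp in H3K4me1-only regions. Over 5 width groups with equal numbers of regions, the SAP18 share of both-mark regions went from 58.9% in the narrowest through 65.6, 77.7 and 84.4% to 82.4% in the widest. In H3K4me1-only regions it went from 22.9% to 18.5%. The gap between the 2 classes was therefore present in all 5 width groups.

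**Figure D2:**
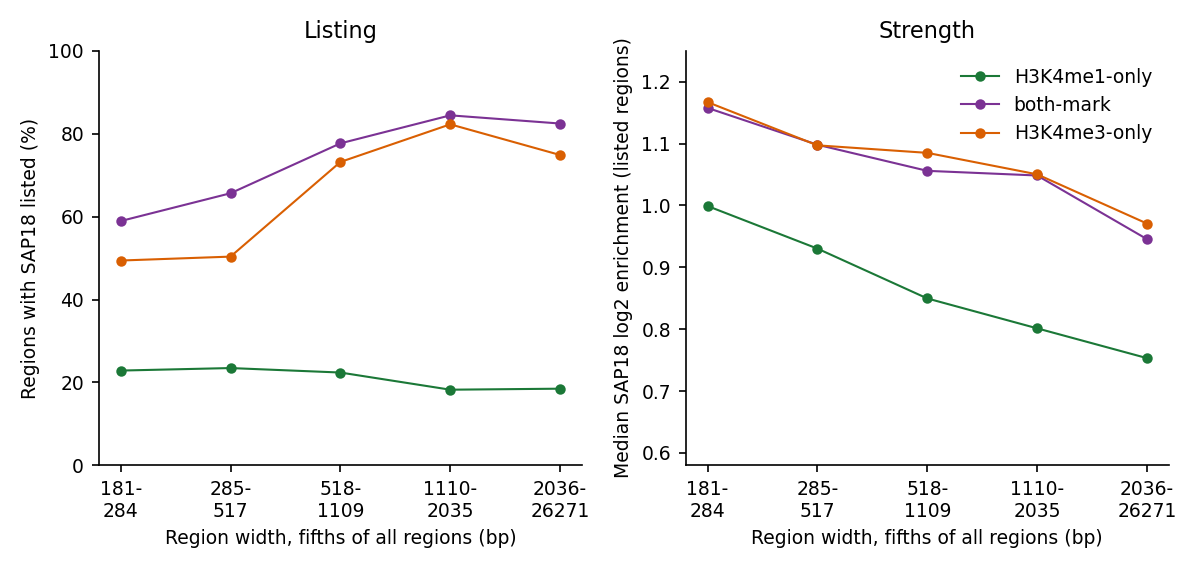
SAP18 by width group in the 3 H3K4 methylation classes. The 5 groups of all regions span 181 to 284, 285 to 517, 518 to 1109, 1110 to 2035 and 2036 to 26271 bp. Panels give the percent of regions that list SAP18 and the median SAP18 log2 enrichment where listed, without intervals. The share is higher in wide than in narrow regions with H3K4me3, while the median enrichment is lower in wide regions of each class.

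Enrichment went the other way, as the plot by width shows. The median SAP18 log2 enrichment was 1.0 in the narrowest and 0.75 in the widest H3K4me1-only regions, 1.16 and 0.95 in both-mark regions, and 1.17 and 0.97 in H3K4me3-only regions. Spearman's rho of SAP18 enrichment with width was -0.44, -0.29 and -0.22 in these classes, and -0.18 over all SAP18 regions. This rho was negative for all 17 factors, from -0.50 for WSTF to -0.03 for SNF2H. The share of regions with RUVBL2 also had the same pattern by width, from 54.3% in the narrowest to 74.6% in the widest both-mark regions and from 21.0 to 10.8% in H3K4me1-only regions. How a value was computed over the width of a region is not given in the labels or headers.

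SAP18 lay where many other factors lay. A SAP18 region listed 7.83 ± 3.68 of the other 16 factors (mean ± SD over regions), and a region without SAP18 listed 2.89 ± 2.82. With and without SAP18 the mean was 5.33 and 2.43 in H3K4me1-only, 9.30 and 5.82 in both-mark, and 8.17 and 4.02 in H3K4me3-only regions. SAP18 was listed at 3.87% of the regions with none of the other factors and at 98.1% of those with 15 of them. Of the 1730 regions with 14 or more others, 1681 listed SAP18.

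**Figure D3:**
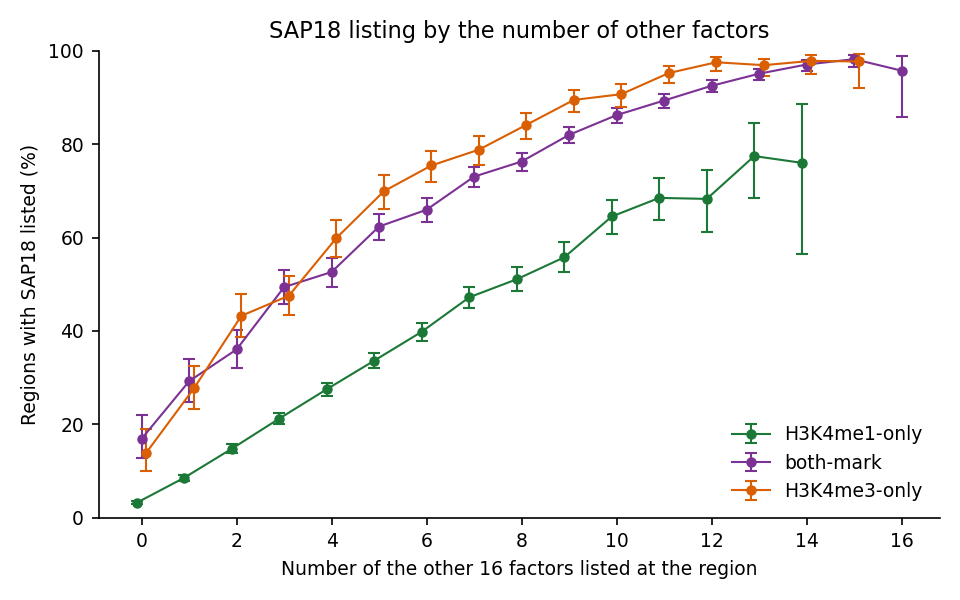
Percent of regions that list SAP18 (vertical axis) by the number of the other 16 factors listed at the region (horizontal axis) in the 3 H3K4 methylation classes, with 95% Wilson intervals. At 5 other factors the share is 33.7% in H3K4me1-only, 62.4% in both-mark and 69.9% in H3K4me3-only regions.

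The classes remained apart at equal numbers of other factors, as the plot by number of factors shows. With 5 others, SAP18 was listed at 33.7% of H3K4me1-only, 62.4% of both-mark and 69.9% of H3K4me3-only regions. SAP18 enrichment was also higher in crowded regions: rho with the number of others was 0.57 over all SAP18 regions, and 0.37, 0.56 and 0.56 in the classes. With SAP18 regions in 4 equal groups from the weakest to the strongest, the mean number of others was 5.00, 7.13, 8.71 and 10.5. The share of H3K4me1-only regions in these groups was 52.9, 33.6, 24.6 and 15.1%.

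SAP18 was the only one of the 17 factors at 362 regions, 1.27% of its regions. Of these, 288 were H3K4me1-only, 42 both-mark and 32 H3K4me3-only. Their median log2 enrichment was 0.75 and H3K27ac was listed at 49.4% of them. The highest value was 1.42 at chr4:123419652-123420020 (369 bp), followed by 1.39 at chrX:98846328-98846769 (442 bp). Both are H3K4me1-only regions without listed H3K27ac, on neither enhancer list, and without an overlapping H3K4me1 peak in R1 cells. Most regions with none of the other factors are H3K4me1-only (8883 of 9360), and SAP18 was listed at 3.24% of these. It was listed at 16.9% of the 248 both-mark and 14% of the 229 H3K4me3-only regions without other factors. SAP18 without other factors was thus the more frequent where H3K4me3 was present, although most such regions had H3K4me1 alone.

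RUVBL2, an AAA+ ATPase of the INO80, SRCAP and TIP60 chromatin complexes and of the R2TP chaperone, was the factor whose regions overlapped most with those of SAP18. It was listed at 38.5% of all regions, at 66.7% of SAP18 regions and at 18% of regions without SAP18. The 19000 shared regions were 73.0% of the RUVBL2 regions, and the Jaccard index (shared regions over regions with either factor) was 0.535. Each factor was the other's nearest by this index. By class the index was 0.242 in H3K4me1-only, 0.679 in both-mark and 0.757 in H3K4me3-only regions. In H3K4me1-only regions 34.8% of SAP18 regions listed RUVBL2 and 44.4% of RUVBL2 regions listed SAP18, whereas in H3K4me3-only regions these shares were 90.9 and 82.0%. Both proteins therefore shared most H3K4me3-bearing regions and a minority of the others. Their overlap has to be read beside how often each was listed in a class. RUVBL2 was listed at 16.9% and SAP18 at 21.5% of all H3K4me1-only regions. In all H3K4me3-only regions these shares were 81.7 and 73.7%, close to those among the partner's regions.

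The 9497 SAP18 regions without RUVBL2 were 61.7% H3K4me1-only, 33.0% both-mark and 5.29% H3K4me3-only, and 71.9% of them listed H3K27ac. Of all regions, 61.8% were H3K4me1-only and 27.2% both-mark, and 62.6% listed H3K27ac. The H3K4me1-only share was thus close to that of all regions, although above the 31.6% of all SAP18 regions. The both-mark share was higher than in all regions and the H3K4me3-only share lower. The 7038 RUVBL2 regions without SAP18 were 55.8% H3K4me1-only, 28.6% both-mark and 15.6% H3K4me3-only. The strengths of the 2 proteins also went together: over regions that list both, rho was 0.53, the highest of the 16 factors. BAF155, a core subunit of the BAF remodeller, followed at 0.50 and SNF2H, the ISWI ATPase, at 0.47, and the lowest was WSTF at 0.12. The points share the SAP18 libraries and the set of regions.

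The splicing-linked proteins are of interest beside SAP18 because of its place in ASAP and PSAP. SRSF2, an SR protein that promotes exon inclusion, was listed at 54.0% of all regions, at 75.9% of SAP18 regions and at 38.0% of regions without SAP18, with a Jaccard index of 0.499. SRSF1, another SR protein, was listed at 40.8% of all regions, at 62.1% of SAP18 regions and at 25.4% without SAP18, with an index of 0.460. PHF5A, a subunit of the SF3B complex that binds the branch site, was listed at 19.8% of all regions, at 28.8% with and 13.3% without SAP18, with an index of 0.244. By this index SAP18 was the nearest factor of both SR proteins, but also of MED1, SNF2H and RUVBL2, and PHF5A was among its 3 least similar factors. The index also depends on how often each factor is listed. Of each protein's own regions, 59.3% listed SAP18 for SRSF2, 64.0% for SRSF1 and 61.2% for PHF5A. With 0, 1, 2 and 3 of these proteins listed, SAP18 was listed at 14.7, 39.2, 65.2 and 77.6% of regions. The mean number of the other 16 factors was 1.34 with none and 10.9 with 3. The 3 proteins are themselves counted among those 16, so part of that difference is set by the grouping. Regions with none of the 3 made up 3169 SAP18 regions (11.1%), and 21560 of all 67697 regions.

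**Figure D4:**
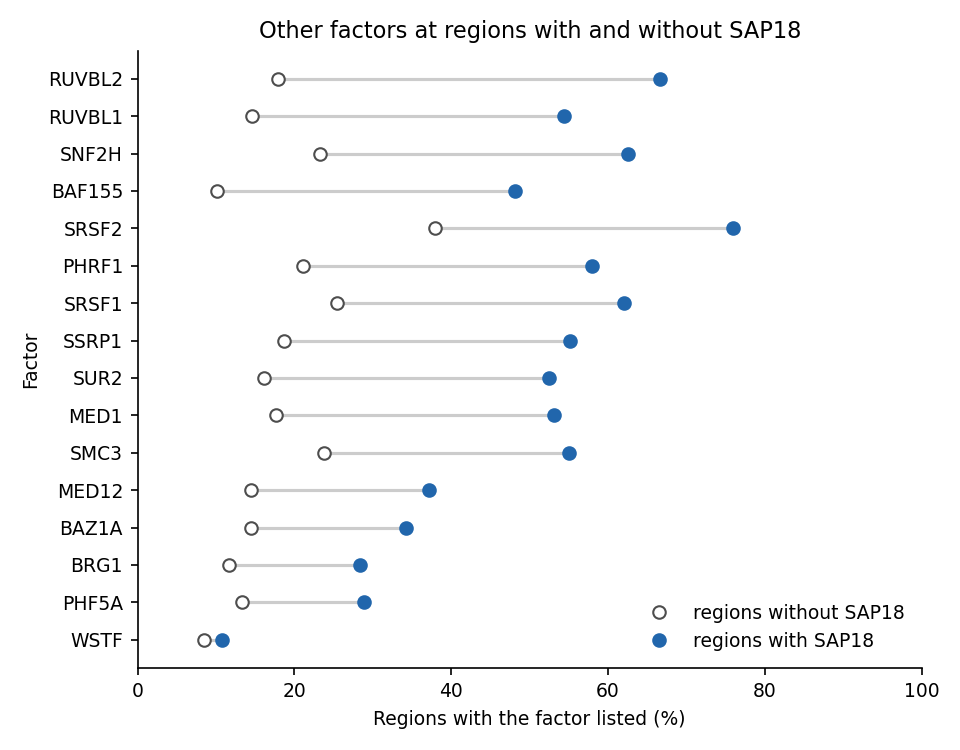
Percent of regions that list each of the other 16 factors, in regions with and without SAP18. RUVBL2 goes from 18% without SAP18 to 66.7% with it and BAF155 from 10.1 to 48.1%, while WSTF goes from 8.50 to 10.8%.

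The remaining factors were likewise listed more often with SAP18, as the plot of partner shares shows. Among remodellers, SNF2H was listed at 39.8% of all regions, with 62.6% of SAP18 regions and 23.3% of the others, and an index of 0.474. BAF155 was listed at 26.1% of all regions, with 48.1% of SAP18 regions and 10.1% of the others. That is a 4.77-fold higher share, the highest ratio of the 16, and 77.6% of BAF155 regions listed SAP18, the highest such share. BRG1, the BAF ATPase, was listed at 18.7% of all regions, with 28.4% of SAP18 regions and 11.7% of the others, and an index of 0.245. BAZ1A (ACF1), a partner of SNF2H, was listed at 22.8%, with 34.3 and 14.4%. WSTF, another SNF2H partner, was listed at 9.47%, with 10.8 and 8.50% and an index of 0.0969, the lowest of all. Of each factor's own regions, 63.8% listed SAP18 for BRG1, 66.1% for SNF2H, 63.3% for BAZ1A and 48.1% for WSTF. The 2 BAF subunits thus did not overlap SAP18 to the same degree. Of the 3 ISWI proteins, SNF2H and BAZ1A were close by this share and WSTF was lower.

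RUVBL1, the partner ATPase of RUVBL2, was listed at 31.3% of all regions, with 54.3% of SAP18 regions and 14.5% of the others. Of the Mediator subunits, MED1 was listed at 32.6% of all regions, with 53.1 and 17.6%. SUR2 (MED23) was listed at 31.4%, with 52.5 and 16.1%, and MED12 of the kinase module at 24.0%, with 37.2 and 14.5%. SMC3, a cohesin subunit, was listed at 36.9%, with 55.0 and 23.8%. SSRP1 of the histone chaperone FACT was listed at 34.0%, with 55.1 and 18.7%. PHRF1, a PHD and RING finger protein that binds the C-terminal domain of RNA polymerase II, was listed at 36.6%, with 57.9 and 21.1%. All 16 factors were thus more frequent with SAP18.

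Since SAP18 regions list more factors of any kind, the partner shares were also compared at equal numbers of the other 15 factors, an alternative chosen after the data were seen. RUVBL2 then stood 21.5 points higher with SAP18 than without it, BAF155 14.8, SRSF2 12.3 and RUVBL1 12.1. BRG1 (-0.417), BAZ1A (-1.69) and PHF5A (-2.33) were lower with SAP18, and 13 of 16 factors were higher. The classes were not alike in this. In H3K4me1-only regions all 16 were higher with SAP18 on the same adjustment, with BRG1 at 3.26, BAZ1A at 4.30 and PHF5A at 2.26 points. In both-mark regions these 3 stood at -5.84, -7.48 and -6.19 points, and in H3K4me3-only regions at -3.22, -8.77 and -9.48. Within both-mark regions, without that adjustment, 15 of 16 were higher with SAP18 and WSTF differed by -1.04 points.

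In H3K4me1-only regions SAP18, like the other factors compared with it, was less often listed farther from H3K4me3. SAP18 was listed at 24.9% of those under 5 kb from the nearest H3K4me3-bearing region, at 22.2% at 5 to 20 kb, 19.9% at 20 to 50 kb, 18% at 50 to 100 kb and 15.2% beyond 100 kb. H3K27ac moved with it, being listed at 55.1% of the nearest and 27.1% of the farthest group. So did RUVBL2, at 19.2 and 13.7%, SMC3, at 27.2 and 19%, and the mean number of other factors, at 3.45 and 2.39. Among H3K4me1-only regions with H3K27ac the SAP18 share was 35.0% in the nearest and 26.6% in the farthest group, and among those without it 12.6 and 11%. Neighbouring H3K4me1-only regions under 5 kb apart resembled each other: SAP18 was listed at 27.2% when the preceding one had it and at 17.9% when it had not. At 20 to 100 kb these shares were 22.0 and 19.4%.

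SAP18 itself was not measured in the MLL3/4 catalytic-dead line, so the question that can be put to the data is how H3K4me1 differed there at the SAP18 regions of 129/Ola cells. R1 H3K4me1 peaks covered H3K4me1-only regions about as often with SAP18 (71.1%) as without it (69.9%). They covered 91.2 and 82.9% of both-mark and 92.1 and 77.0% of H3K4me3-only regions. Among all R1 H3K4me1 peaks, 28.4% were called decreased by the authors (a catalytic-dead over wild-type ratio of 0.5 or below) and 15.2% increased (a ratio of 2 or above). These calls are rules of size, with 1 value per line, and which libraries entered it is not stated.

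**Figure D5:**
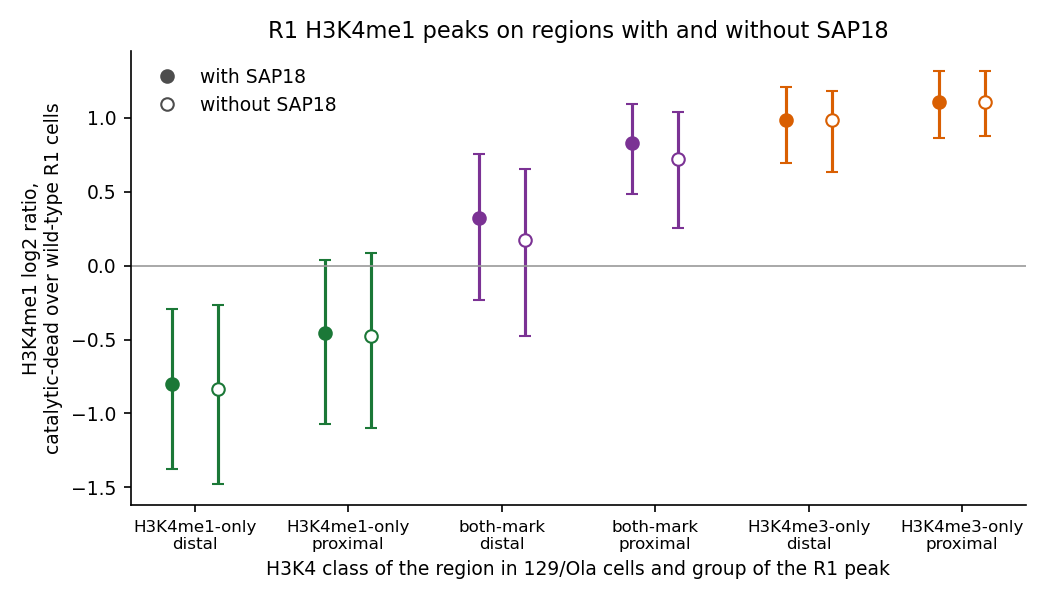
Log2 ratio of H3K4me1 enrichment, catalytic-dead over wild-type R1 cells, at peaks overlapping regions with and without SAP18 in the 3 H3K4 methylation classes. Distal and proximal peaks are drawn separately. Points are medians and bars run from the first to the third quartile over peaks; there are no replicate values. Distal medians with and without SAP18 are -0.80 and -0.84, 0.32 and 0.18, and 0.98 and 0.98. Proximal medians are -0.45 and -0.47, 0.83 and 0.72, and 1.10 and 1.10.

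At H3K4me1-only regions the median log2 ratio was -0.77 at 6236 peaks with SAP18 and -0.80 at 21109 peaks without it, and 39.4 and 41.5% were called decreased. The quartiles, -1.35 and -0.25 with SAP18 and -1.44 and -0.23 without it, covered nearly the same range. The plot of H3K4me1 ratios shows distal and proximal peaks separately. The difference of 0.03 changed sign in 2 of the alternatives given in the closing section. At both-mark regions H3K4me1 was higher in the catalytic-dead line, with medians of 0.66 at 14358 peaks with SAP18 and 0.42 at 3856 without, and 24.5 and 16.9% called increased. Of these peaks 43.0% were distal with SAP18 and 59.0% without it, and the rest were proximal. Within distal peaks the medians were 0.32 and 0.18, and within proximal peaks 0.83 and 0.72. At H3K4me3-only regions the medians were 1.09 and 1.08, with 60.3 and 59.2% called increased. The both-mark quartiles, 0.16 and 0.99 with SAP18 and -0.19 and 0.86 without it, overlapped widely. The both-mark difference of 0.23 was 0.14 in peaks of above-median enrichment and 0.28 at equal numbers of other factors, both settings chosen after the data were seen.

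H3K4me2 at the same regions followed a similar order. Of all R1 H3K4me2 peaks, 23.0% were called decreased and 1.91% increased. At H3K4me1-only regions the median log2 ratio was -0.85 with SAP18 and -0.95 without it, and 43.5 and 48.4% were called decreased. At both-mark regions the medians were 0.13 and 0.04. At H3K4me3-only regions they were 0.26 and 0.22. For H3K4me3 the medians at both-mark regions were -0.02 with and -0.02 without SAP18.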

How the data were processed

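Members and lists were chosen with earlier results of these data known. Per the submitters' processing notes, reads were mapped to mm9 and processed with Bowtie, Picard and MACS2 (no versions) for 129/Ola libraries. For R1 libraries they list deepTools 2.5.1 and 2.5.3, MACS2 2.1.0.20150731, Picard 2.11.0 and BWA 0.7.13-r1126. The sources used here do not give the tools' roles, the reference of the enrichment or the pooling of replicates. The authors deposited 1 log2 enrichment per factor and region. Of 31 names in that table, 11 matched no labelled 129/Ola library and stayed out. The authors also deposited peak tables with a fold (ratio) enrichment in wild-type and catalytic-dead R1 cells, marked FE per the file headers.

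Positions in those peak tables run through chromosomes in text order and values in number order. Values were therefore put back in number order before use: on chromosomes 2 to 19, rho of H3K4me1 peak width with wild-type enrichment was 0.00253 as deposited and 0.253 restored, against 0.215 on chromosome 1, where both orders are the same.

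Regions were counted by class with Python 3.11.15, pandas 2.3.3, numpy 2.4.6 and scipy 1.17.1 (figures: matplotlib 3.10.9). Shares carry 95% Wilson intervals, their differences Newcombe intervals. Regions and peaks were joined at an overlap of 1 bp. For the R1 H3K4me1 ratios, peaks touching regions of more than 1 class were left out. A peak counted as with SAP18 if any region it touched listed SAP18. Adjusted shares were averaged over strata of all regions. Scripts were tested on simulated data. Alternatives varied the presence limit (log2 of 1), H3K27ac split, class, width, number of other factors, sex chromosomes, overlap, peak group and value order. Named regions were the 3 highest SAP18 values per class and the 2 highest among SAP18-only, active and poised regions. Partners described in full were the 3 highest and 3 lowest by Jaccard index and the 3 splicing-linked proteins. Depth is unknown, so no depth-based precision is given.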

Additional observations from a re-analysis of the deposited data

How the results depend on the processing

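Comparisons are between percentages of regions unless stated. The both-mark minus H3K4me1-only difference (54.5 points) was 36.0 when SAP18 counted only at a log2 of 1 or more, 52.7 at equal width and 22.5 at equal numbers of other factors. The both-mark minus H3K4me3-only difference (2.38) was 0.785, 7.81 and -3.57 under the same 3 settings, so it reversed at equal numbers of other factors (55.1 against 58.7%). The H3K27ac difference (39.8) was 22.1 at the stricter limit, 37.2 with H3K27ac split at a log2 of 1, 21.7 at equal class and 12.8 at equal numbers of other factors. The difference in mean number of other factors (4.94) was 4.49 at the stricter limit and 3.20 at equal class. The difference in median SAP18 log2 enrichment, both-mark minus H3K4me1-only (0.16), was 0.0537 without values below 1, 0.20 at equal width and 0.0359 at equal numbers of other factors. The Spearman correlation of SAP18 with H3K27ac log2 enrichment (0.0893) was 0.0125 without pairs below 1 and 0.0538 within classes. The difference in median R1 H3K4me1 log2 ratio with minus without SAP18 (0.03) reversed to -0.0839 in peaks of above-median enrichment and to -0.00282 at equal numbers of other factors. The same difference at both-mark regions (0.234) was 0.0109 with values in the deposited layout, 0.136 in peaks of above-median enrichment, 0.147 in distal peaks and 0.275 at equal numbers of other factors. Of the partner differences, BAZ1A (-1.69), BRG1 (-0.417) and PHF5A (-2.33) reversed at equal numbers of other factors. All settings for the both-mark R1 ratio, and those at equal numbers of other factors for the H3K4me1-only R1 ratio, the partners and the median strength were chosen after seeing the data. The cause of each of these changes was not tested.

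No paired analysis was possible because the table holds 1 value per factor and region, with no replicate columns. No replicate was left out for the same reason. A factor below the listing limit cannot be told apart from one with no value, and the unknown depth sets which weak SAP18 regions are listed.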

Other observations

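Chromosome X stood apart in its SAP18 share, which was 64.9% (417 of 643 regions) against 36.0 to 50.9% on the autosomes. By class the X shares were 14% in H3K4me1-only (12 of 86 regions), 77.6% in both-mark and 70.8% in H3K4me3-only regions. The last 2 lay within the autosome ranges and the first, which rests on few regions, below the lowest autosome. H3K4me1-only regions made up 13.4% of the X regions, against 61.8% of all regions of the table.

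Regions with SAP18 alone had a higher median width than all SAP18 regions in each of the 3 classes. In the 288 such H3K4me1-only regions it was 666.5 bp, compared with 457 bp for all SAP18 regions of that class. The median width of the 42 both-mark regions where SAP18 was the only listed factor was 3503 bp, and that of the 32 such H3K4me3-only regions 2253 bp, compared with 1230 and 1553 bp for all SAP18 regions of these classes.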
